A study of Mus musculus with 4 samples.

Results

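The control cultures of a CDK8 study in CT26, which is a colon carcinoma line of the mouse, were compared with each other. The array of the line labelled CT26-pLKO.1 was set against the array of CT26 cells given the solvent DMSO for 24 h, as the pLKO.1 value minus the DMSO value on the log2 scale. The genes compared were all those with a probe set annotated to a single symbol, 22180 genes from 23521 of the 41345 probe sets. The series has 4 arrays of type Affymetrix Mouse Gene 2.0 ST, with 1 culture on each, and the comparison uses 2 of them. The other arrays hold CT26 cells given 5 µM Senexin B, an inhibitor of the Mediator kinases CDK8 and CDK19, for 24 h, and the line labelled CT26-shCDK8. Their levels are printed beside those of the controls, so that a reader can see on which array a gene is high or low.

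Both controls share the CT26 background, the culture medium with fetal bovine serum and the RNA kit. They differ in that one received solvent and the other carries pLKO.1, a lentiviral backbone used to express short hairpin RNAs. Whether the pLKO.1 culture also received solvent, whether it is a pool or a clone, and what its vector encodes in place of a hairpin are not stated in the labels. With 1 array on each side there is no replicate error, no test and no p-value, and, in RNA from whole cultures, a change in the share of cells and in RNA per cell cannot be told apart. Likewise effects of the vector, of the solvent and of culture or array handling cannot be told apart. A value below is a difference between 2 cultures, and each fold is given without an error for that reason.

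Of the 12 genes at least 2-fold higher in pLKO.1 (0.0841% of expressed genes), 7 belong to the interferon system. Cells sense foreign or misplaced nucleic acid through receptors in endosomes and in the cytosol, which drive the production of type I interferons. Secreted interferon binds its receptor, the kinases JAK1 and TYK2 become active, and a complex that contains IRF9 then binds interferon-stimulated response elements in promoters. Its targets include antiviral effectors such as the oligoadenylate synthetases, the guanylate-binding and immunity-related GTPases, antigen presentation genes, and IRF7 and USP18, which amplify and restrain the response.

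Promoters of 4 interferon-stimulated genes are shown because they carry a spaced pair of GAAA repeats, GAAA followed by any 2 bases and a further GAAA, of the kind found in interferon-stimulated response elements. The first 3 genes were higher in pLKO.1, and Ifit3 was not. The sequences are from RefSeq for GRCm38.p6, run 5′ to 3′ on the gene's strand from 250 bases before the annotated start to 50 bases after it, and have every match on either strand in capitals, with overlapping matches merged.
Oas1g, chr5:120887564-120887863, minus strand: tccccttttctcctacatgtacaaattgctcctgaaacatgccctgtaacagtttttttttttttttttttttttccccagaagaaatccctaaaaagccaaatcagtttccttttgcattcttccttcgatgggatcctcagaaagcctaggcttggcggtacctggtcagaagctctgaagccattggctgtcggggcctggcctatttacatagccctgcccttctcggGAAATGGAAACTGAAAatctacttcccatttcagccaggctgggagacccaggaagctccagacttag
Gbp7, chr3:142530086-142530385, plus strand: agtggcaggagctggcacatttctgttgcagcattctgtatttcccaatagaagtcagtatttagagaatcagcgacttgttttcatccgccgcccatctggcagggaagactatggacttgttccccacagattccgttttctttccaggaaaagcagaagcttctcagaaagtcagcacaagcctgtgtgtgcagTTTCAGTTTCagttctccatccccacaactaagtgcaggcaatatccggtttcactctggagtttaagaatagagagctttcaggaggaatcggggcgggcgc
Isg15, chr4:156200769-156201068, minus strand: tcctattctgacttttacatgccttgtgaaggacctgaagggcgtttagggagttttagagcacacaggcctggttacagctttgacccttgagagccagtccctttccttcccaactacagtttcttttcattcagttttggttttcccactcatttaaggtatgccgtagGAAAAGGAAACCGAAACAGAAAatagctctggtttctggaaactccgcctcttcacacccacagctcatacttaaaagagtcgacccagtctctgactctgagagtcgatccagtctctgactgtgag
Ifit3, chr19:34583279-34583578, plus strand: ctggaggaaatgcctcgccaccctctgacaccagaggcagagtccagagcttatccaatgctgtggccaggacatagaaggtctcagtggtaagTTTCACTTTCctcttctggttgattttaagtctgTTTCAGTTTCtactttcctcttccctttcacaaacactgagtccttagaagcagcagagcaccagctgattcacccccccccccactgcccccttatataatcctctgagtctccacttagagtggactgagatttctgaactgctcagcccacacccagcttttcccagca
Oas1g holds 2 overlapping matches that lie between 18 and 3 bases before the start, Gbp7 holds 1 on the opposite strand between 53 and 44 bases before it, and Isg15 holds 3 overlapping matches between 78 and 57 bases before it. Ifit3 holds 2 separate matches on the opposite strand between 156 and 113 bases before its start.

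The arrays were alike in their overall distribution. Over all probe sets the median was 5.99 on the DMSO array, 6.02 on pLKO.1, 6.04 on Senexin B and 6.03 on shCDK8. Expressed genes were the 14272 with at least 1 array at or above 5.98, a limit set at the 40th percentile of gene values. Of all genes 12732 reached this limit on both controls (57.4%), 449 on pLKO.1 alone, 505 on DMSO alone and 586 only on another array, and 7908 stayed below it on every array. The limit is a rank and not a detection call, since the signal over background was not used here: the neuronal marker Rbfox3 stood above it on both controls, at 7.62 in DMSO and 7.78 in pLKO.1. Across expressed genes the controls had a Pearson correlation of 0.993, and pairs among the 4 arrays had 0.977 to 0.993, as a description over genes that share probe chemistry and processing.

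All 7 measured mesenchymal markers reached the limit on both controls, beside 57.4% of all genes. The 4 neuronal markers did so as well (Rbfox3, Tubb3, Syp and Snap25), so the count alone does not identify a cell type. Vim, the intermediate filament of mesenchymal cells, stood at 13.94 in DMSO and 13.81 in pLKO.1, and Cdh2, N-cadherin, at 10.47 and 10.42. The transcription factor genes Zeb1 and Snai2, which repress epithelial genes, stood at 6.99 and 7.23 and at 11.09 and 11.00. Fn1, the matrix protein fibronectin, was the mesenchymal marker farthest apart, at 12.26 in DMSO and 12.83 in pLKO.1. Of the fibroblast list 8 of 9 markers reached the limit on both controls, among them Pdgfra (9.09 and 9.23), Pdgfrb (9.12 and 9.30), Col1a1 (9.06 and 9.15) and Col1a2 (10.80 and 10.91). A second probe set of Vim differed by 0.21 in the other direction, and a second one of Col1a2 by -0.15.

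Of the epithelial list 5 of 12 markers reached the limit on both controls, and of the colon list 5 of 10, shares near the 57.4% of all genes. The defining markers were split. Epcam, the epithelial adhesion molecule, stood at 4.42 in DMSO and 4.53 in pLKO.1, and Cdh1, E-cadherin, just above the limit at 6.54 and 6.50. A second probe set of Cdh1 lay under the limit, at 4.98 in DMSO and 5.00 in pLKO.1. The simple epithelial keratins Krt8 and Krt18 stood at 7.12 and 7.25 and at 6.53 and 6.49. A second probe set of Krt18 differed by 0.34, beside -0.04 for the one used. Cdx2 and Cdx1, intestinal transcription factors, were at 6.57 and 6.40 and at 6.51 and 6.19, and the villus protein gene Vil1 at 5.63 and 5.41. The intestinal stem cell marker Lgr5 was also under the limit, at 5.41 and 5.53. The colon surface antigen gene Gpa33 was above it, at 6.79 and 6.63, and Krt20, a keratin of differentiated intestinal epithelium, was the marker of both lists that differed most between the controls. Krt20 stood at 8.72 in DMSO, 8.62 in Senexin B, 8.03 in pLKO.1 and 6.59 in shCDK8. The DMSO and Senexin B cultures were thus alike, pLKO.1 differed from DMSO by -0.69, and shCDK8 was lower still.

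Markers of other cell types were mixed. Of the lymphocyte list 0 of 6 measured markers reached the limit on both controls, with the leukocyte antigen Ptprc at 4.66 and 4.47 and Cd3e at 5.42 and 5.38, and Cd4 was above it in DMSO alone, at 6.07 and 5.91. Endothelial markers reached it in 2 of 7 cases, Flt1 (7.85 and 7.73) and Kdr (6.02 and 6.07), with Pecam1 at 5.88 and 6.01, Cdh5, the endothelial cadherin, at 6.15 and 5.47 and Tek at 5.56 and 5.17. Macrophage markers reached it in 3 of 7, which were Cd68 (8.82 and 8.88), Cd14 (8.76 and 8.82) and Mrc1 (6.59 and 6.49), while Adgre1 (5.03 and 4.66), Csf1r (5.88 and 5.69) and Itgam (5.38 and 5.22) did not. Of the hepatocyte list Apoa1 alone reached it, and Alb stood at 4.71 and 4.81. Smooth muscle genes were split, with Acta2 at 8.37 and 8.42 and Myh11 at 6.47 and 6.79 above the limit on both, and Tagln at 5.90 and 5.77 and Des at 5.51 and 5.71 below it. The adipocyte genes Adipoq (4.77 and 4.71) and Lep (5.24 and 5.11) were low and Plin1 stood at 6.19 and 6.08.

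**Figure D1:**
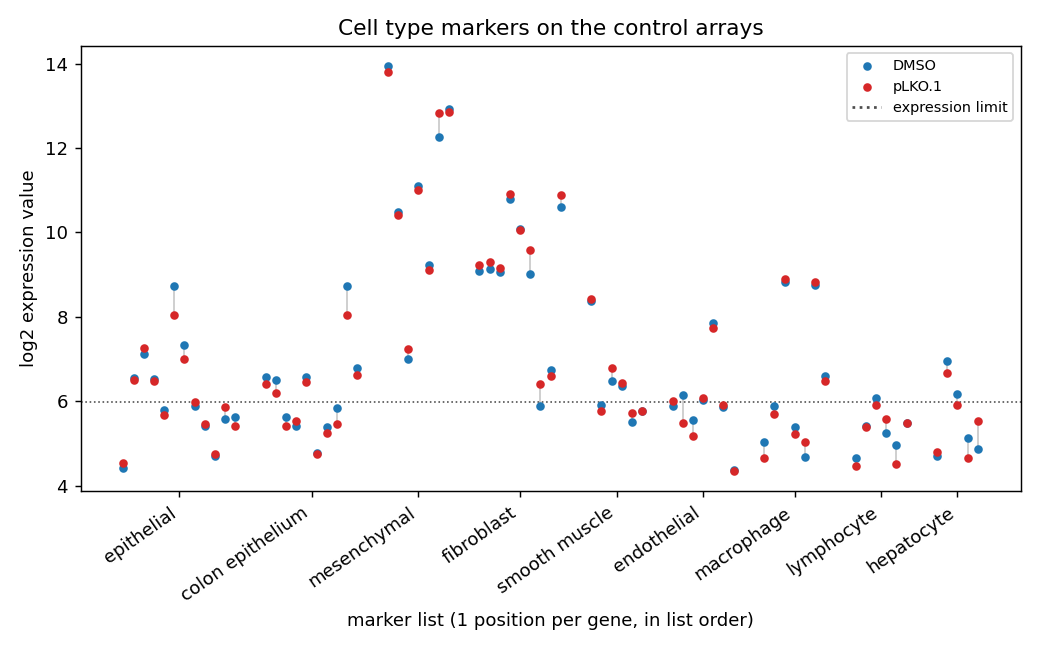
Log2 expression values of cell type markers (neuronal and adipocyte lists not drawn) on the DMSO (blue) and pLKO.1 (red) arrays, with 1 position per gene and a dotted line at the expression limit of 5.98. All 7 mesenchymal markers lie above the line on both arrays, while 5 of 12 epithelial and 0 of 6 lymphocyte markers do.

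Between the controls the differences were small for most genes. The median over expressed genes was -0.023, the quartiles were -0.13 and 0.091, and the SD over genes was 0.194. The spread fell as the level rose, from an SD of 0.242 in the lowest of 5 equal groups by mean control level to 0.135 in the highest, so a given difference is less common among strongly expressed genes. At least 2-fold higher in pLKO.1 were 12 expressed genes (0.0841%) and at least 2-fold lower were 2 (0.014%). At 1.5-fold the counts were 86 higher (0.603%) and 62 lower (0.434%). In all 44.3% of expressed genes lay above 0 and 55.6% below.

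**Figure D2:**
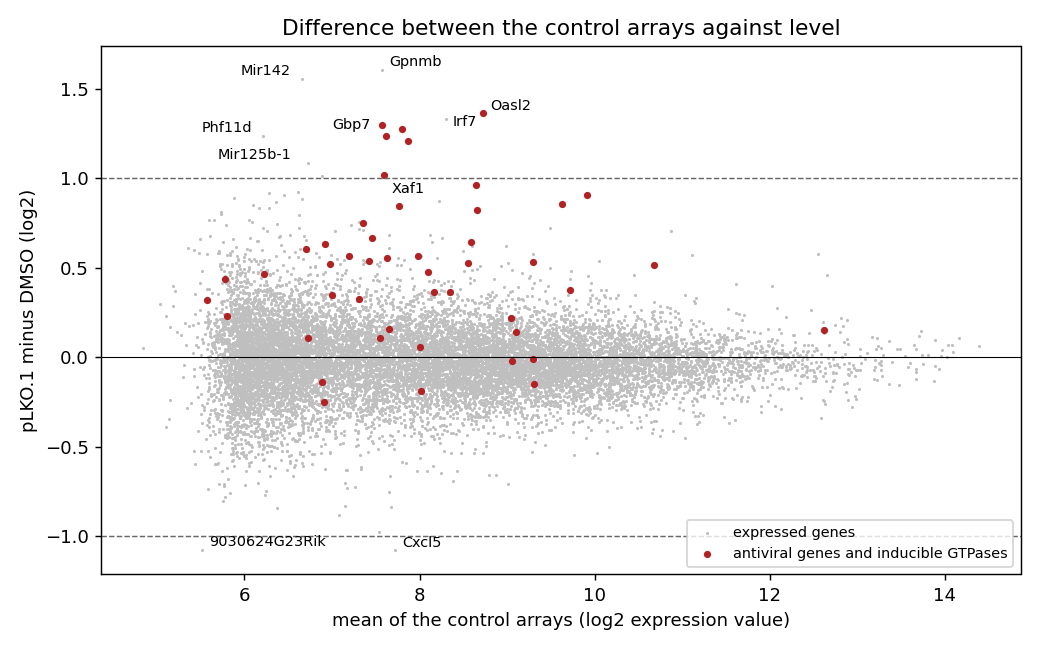
Difference of pLKO.1 minus DMSO (log2) against the mean of the control arrays (log2 expression value) for 14272 expressed genes in grey, with antiviral genes and interferon-inducible GTPases in red and dashed lines at 2-fold. Red points are frequent among the genes farthest above 0, and the grey cloud narrows as the level rises.

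Among the 12 higher genes 7 belong to the interferon lists. Oasl2, an oligoadenylate synthetase-like antiviral gene, stood at 8.04 in DMSO, 9.44 in Senexin B, 9.40 in pLKO.1 and 8.24 in shCDK8, a 2.57-fold difference between the controls (1.36). Irf7, the transcription factor that amplifies the type I interferon response, stood at 7.63, 8.84, 8.96 and 7.76 in the same order, 2.51-fold higher in pLKO.1. For both genes the shCDK8 value lay near DMSO and the Senexin B value near pLKO.1. That DMSO lay below pLKO.1 follows from how these genes were chosen. How often such a pattern occurs over all expressed genes was not counted. Gbp7, a guanylate-binding protein gene, was at 6.93 in DMSO, 8.40 in Senexin B, 8.23 in pLKO.1 and 7.64 in shCDK8, so that shCDK8 lay between the others. Oas2, which makes the second messenger that activates RNase L, was at 7.16, 8.71, 8.44 and 7.07. Oas1g, of the same family, was at 7.0, 7.69, 8.24 and 7.21. In both, the shCDK8 value again lay near DMSO, and for Oas1g the Senexin B value was in the middle. Usp18, the protease that removes ISG15 and damps interferon receptor signalling, was at 7.27, 8.87, 8.48 and 7.74. Xaf1, an interferon-induced gene that promotes cell death, was at 7.08, 8.14, 8.10 and 7.73, and its difference of 1.02 was just past 2-fold. Oas1g has closely related copies in the mouse genome, and the signal of its probe set cannot be assigned with certainty to this copy.

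The other 5 genes at least 2-fold higher had no common list. Gpnmb, a transmembrane glycoprotein found in lysosomes and melanosomes, was the farthest apart of all. It stood at 6.77 in DMSO, 8.81 in Senexin B, 8.38 in pLKO.1 and 9.44 in shCDK8, 3.04-fold higher in pLKO.1 than in DMSO. The DMSO value was the lowest of the 4. For every gene of this group, that DMSO lay below pLKO.1 is fixed by the selection. Phf11d, a member of the Phf11 gene cluster, was at 5.59, 6.79, 6.83 and 7.71 in the same order and again lowest in DMSO, where it lay under the limit. With that value raised to the limit its difference fell from 1.24 to 0.85. Phf11b of the same cluster is in the antiviral list, while Phf11d is in no interferon list. The split into interferon and other genes thus depends on how the lists were drawn. Ndst4, a heparan sulfate sulfotransferase gene, was at 6.38, 6.41, 7.39 and 6.31, and was high in pLKO.1 alone.

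The remaining pair were probe sets named for microRNA genes. Their mature products are shown because Mir142 and Mir125b-1 are the non-coding genes past 2-fold, with the seed, bases 2 to 8, in capitals and the coordinates of GRCm38.p6 from RefSeq.
mmu-miR-142a-5p, chr11:87756867-87756887, plus strand: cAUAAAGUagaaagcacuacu
mmu-miR-142a-3p, chr11:87756903-87756925, plus strand: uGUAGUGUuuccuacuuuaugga
mmu-miR-125b-5p, chr9:41581940-41581961, plus strand: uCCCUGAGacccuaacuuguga
mmu-miR-125b-1-3p, chr9:41581980-41582001, plus strand: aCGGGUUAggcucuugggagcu
No seed is shared among these 4. Mir142, a microRNA gene of blood cells, stood at 5.88 in DMSO, 6.10 in Senexin B, 7.44 in pLKO.1 and 6.37 in shCDK8, highest in pLKO.1 and under the limit in DMSO. Its difference was 1.56, or 1.46 with the DMSO value raised to the limit. Mir125b-1 stood at 6.18, 6.41, 7.27 and 7.40, with pLKO.1 and shCDK8 above both other cultures. Whether these probe sets read the precursor or the mature form is not stated in the labels or the annotation. The leukocyte marker Ptprc was low on both control arrays, while 3 of 7 macrophage markers reached the limit on both, as given above. The source of the Mir142 signal was not tested.

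**Figure D3:**
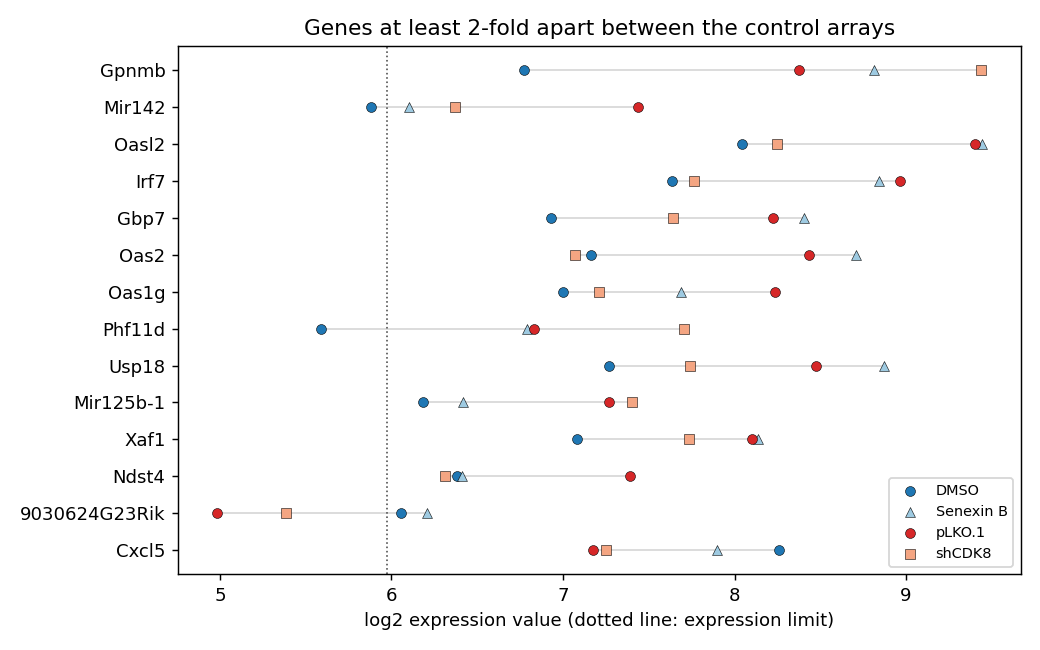
Log2 expression values on the 4 arrays for the 14 genes at least 2-fold apart between DMSO (blue circles) and pLKO.1 (red circles), with Senexin B as triangles, shCDK8 as squares and a dotted line at the limit of 5.98. The shCDK8 square lies near the DMSO circle for Oasl2, Irf7, Oas2 and Oas1g and beyond the pLKO.1 circle for Gpnmb and Phf11d.

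By role, the expressed ligand and receptor genes of the interferon system had differences from -0.24 for Ifnlr1 to 0.30 for Ifnl2. Several responding genes lay farther apart. Of 9 measured interferon genes 4 reached the expression limit, and Ifnb1, interferon beta, did not, at 4.96 in DMSO and 5.27 in pLKO.1. Ifna1 stood at 8.04 and 7.98 and Ifnl2, a type III interferon gene, at 8.24 and 8.54. Both type I receptor chains were level, Ifnar1 at 9.68 on both arrays and Ifnar2 at 9.02 and 8.97. The receptor chains for interferon gamma, Ifngr1 (-0.18) and Ifngr2 (-0.07), and the kinases Jak1 (0.12) and Tyk2 (-0.08) differed by less than 0.2. Of the other listed receptor genes, Ifnlr1 was at -0.24, with its pLKO.1 value under the limit, and Il10rb at -0.17. Among the transcription factors Stat2 was 0.37 and Irf9 0.87 higher in pLKO.1, while Irf1 (0.01) and Irf3 (0.04) were level. Irf9, which binds DNA at interferon-stimulated response elements, was at 7.79 in DMSO, 8.57 in Senexin B, 8.66 in pLKO.1 and 8.31 in shCDK8, and lowest in DMSO. Over the 16 expressed receptor and signalling genes the median was 0.023, with 9 above 0, against 44.3% of all expressed genes. Irf7 and Irf9 were the ones past 1.5-fold, against 0.603% higher among all expressed genes. Irf5, Oas1a, Ifi44, Gbp2, Ifi47 and H2-D1 are among the listed genes without a probe set of a single symbol and were not analysed here.

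Sensors of nucleic acid lay higher in pLKO.1 in 14 of 18 expressed members, against 44.3% of all expressed genes, with a median of 0.27. The RNA helicase sensor Ifih1 was 0.56 higher (7.74 in DMSO and 8.30 in pLKO.1), the related Ddx58 0.33 higher (8.97 and 9.30) and their regulator Dhx58 0.44 higher (7.10 and 7.54). The endosomal sensors of double- and single-stranded RNA, Tlr3 and Tlr7, were 0.55 and 0.68 higher. Tlr7 was the single member past 1.5-fold, against 0.603% higher among all expressed genes. It stood at 6.18 in DMSO, 6.68 in Senexin B, 6.87 in pLKO.1 and 5.35 in shCDK8, so its shCDK8 value lay under the limit. The cytosolic DNA sensor gene Cgas (-0.07), its adaptor Sting1 (-0.15), the helicase adaptor Mavs (0.03) and the kinase Tbk1 (0.07) were close to level. The Toll-like receptor adaptors Myd88 (-0.27) and Ticam1 (-0.28) were lower in pLKO.1. Eif2ak2, the double-stranded RNA-dependent kinase PKR, was 0.26 higher and Adar, which edits double-stranded RNA, 0.33 higher.

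The antiviral genes were the list farthest from 0. Of 48 measured members 40 were expressed, and 34 of these lay above 0, against 44.3% of all expressed genes. The list median was 0.52, beside -0.023 over all expressed genes. At least 1.5-fold higher were 13 of the 40, against 0.603% of all expressed genes. At least 1.5-fold lower were 0 of the 40, against 0.434%. Besides those past 2-fold, Apol9b (0.96), Ifi27 (0.90), Apol9a (0.86), Oas3 (0.84) and Rtp4 (0.82) stood highest. Apol9a and Apol9b are near-identical copies and may share probes, so their values may not be independent. Oas3, a further oligoadenylate synthetase gene, lies next to Oas2 in the RefSeq gene order. Oas3 stood at 7.34 in DMSO, 7.89 in Senexin B, 8.18 in pLKO.1 and 7.57 in shCDK8. Oas1b, of the same family, was 0.61 higher in pLKO.1. Rtp4, an interferon-induced receptor transporter, was at 8.24, 9.31, 9.07 and 8.07, with DMSO and shCDK8 again low.

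The middle of the list held well-known markers of the response. Isg15, the ubiquitin-like modifier, stood at 7.86 in DMSO, 8.46 in Senexin B, 8.34 in pLKO.1 and 7.73 in shCDK8. Its activating enzyme Uba7 was 0.67 higher in pLKO.1, whereas Ube2l6, its conjugating enzyme, was at -0.01. Bst2, tetherin, which holds budding virus at the cell surface, was 0.53 higher. Rsad2, viperin, was 0.46 higher from a DMSO value of 5.99 at the limit. Ifit1, which binds viral RNA caps, stood at 7.70, 8.75, 8.27 and 7.37 in DMSO, Senexin B, pLKO.1 and shCDK8, 0.57 higher in pLKO.1. Sp100 and Sp110, nuclear body proteins, were 0.64 and 0.54 higher, and their next brightest probe sets gave 0.51 and 0.50, while the weakest one of Sp100, under the limit, gave -0.16. Parp9, Parp14 and Parp12, ADP-ribosyltransferases, were 0.55, 0.56 and 0.38 higher.

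Some members did not follow. Ifit3 was at -0.25, with 7.03 in DMSO, 7.48 in Senexin B, 6.78 in pLKO.1 and 7.15 in shCDK8, and Ifit2 at -0.19. Thus 3 relatives of 1 family differed in direction, with Ifit1 higher in pLKO.1 and Ifit2 and Ifit3 lower. The membrane proteins Ifitm2 and Ifitm3, which block viral entry, were at -0.15 and 0.15, Phf11b was at -0.14 and Isg20 at -0.02. Oasl1 was 0.36 higher in pLKO.1 (8.53) than in DMSO (8.16), with Senexin B at 8.20 and shCDK8 lowest at 7.05. Mx1, Mx2, Ifi44l, Ifitm1, Ifit3b, Slfn5, Trim30a and Epsti1 did not reach the limit on any array. Among these Mx1 is known to be defective in many inbred mouse strains, and it stood at 4.38 in DMSO and 4.34 in pLKO.1.

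All 7 expressed interferon-inducible GTPases lay above 0, against 44.3% of all expressed genes, with a median of 0.44. At least 1.5-fold higher in pLKO.1 were 3 of 7, against 0.603% of all expressed genes. After Gbp7 these were Igtp (6.97 in DMSO, 7.76 in Senexin B, 7.72 in pLKO.1 and 7.04 in shCDK8) and Irgm2 (6.60, 7.31, 7.23 and 6.07). Both belong to the immunity-related GTPases, which act on vacuoles of intracellular pathogens, and they are neighbours in the RefSeq gene order. In both the DMSO and shCDK8 arrays were low. Irgm1 was 0.35 and Gbp3 0.44 higher, with Gbp3 under the limit in DMSO and 0.02 higher when that value was raised to it, while Gbp9 and Gbp10 were each 0.11 higher. Gbp4, Gbp5, Gbp6 and Iigp1 were below the limit on every array.

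Genes of MHC class I presentation differed less. Of 19 expressed members 14 lay above 0, against 44.3% of all expressed genes, with a median of 0.11. Nlrc5, the transactivator of these genes, was the single one past 1.5-fold, against 0.603% higher among all expressed genes. It stood at 6.38 in DMSO, 6.68 in Senexin B, 7.03 in pLKO.1 and 6.60 in shCDK8. The class I gene H2-Q4 was 0.49 higher in pLKO.1, with 0.51 from its second probe set, and H2-T23 was 0.38 higher. The peptide transporter genes Tap1 and Tap2 were 0.32 and 0.30 higher, and the immunoproteasome subunits Psmb9 and Psmb8 0.41 and 0.28. Psmb10, the third such subunit, was at -0.20. The invariant chain gene of all class I molecules, B2m, differed by 0.11, H2-K1 by 0.18 and the peptide-loading chaperone gene Calr by -0.18. Tapbp was 0.08 higher by the probe set used and at -0.33 by its other probe set.

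In all, the 6 lists from ligands to MHC class I held 104 expressed genes. They supplied 7 of the 12 genes at least 2-fold higher (58.3%), or 6.73% of the 104, against 0.0841% of all 14272 expressed genes. At 1.5-fold they supplied 20 of the 86 higher genes (23.3%), or 19.2% of the 104, against 0.603% of all. They supplied 0 of the 62 lower genes. Over all expressed genes 0.434% were lower, and at that share a count of 0 among 104 says little.

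**Figure D4:**
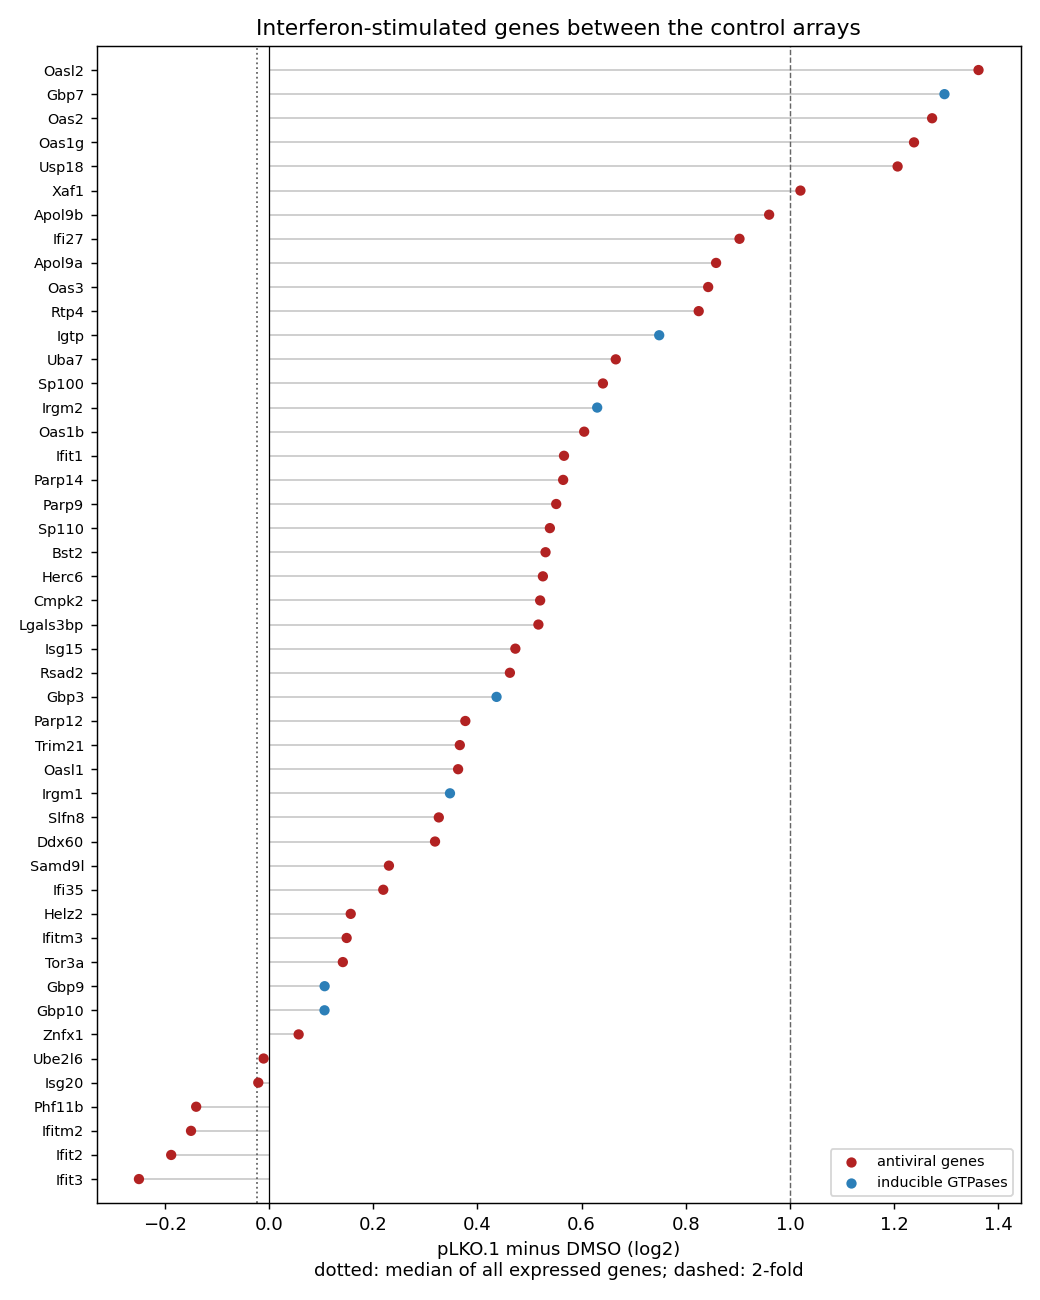
Difference of pLKO.1 minus DMSO (log2) for each expressed antiviral gene (red) and interferon-inducible GTPase (blue), ordered by size, with a dotted line at the median of all expressed genes and a dashed line at 2-fold. Members run from -0.25 for Ifit3 to 1.36 for Oasl2, and 34 of 40 antiviral genes lie above 0, against 44.3% of all expressed genes.

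The spaced pair of GAAA repeats was searched on both strands of the 300-base promoters, with overlaps counted once a gene. It occurred in 3.99% of the 27025 genes with a promoter in the table and in 3.41% of the 11151 expressed ones. Among the antiviral genes 15 of 32 expressed members with a promoter held it (46.9%), and all 5 such GTPase genes did. Of the 45 genes with a promoter that were at least 1.5-fold higher in pLKO.1, 10 held it (22.2%), and of the 44 lower ones 1 did (2.27%). The 10 include Oas1g, Oas3, Gbp7, Igtp, Irgm2 and the near-identical Apol9a and Apol9b. These are interferon list members already counted above as higher, so the share is not a separate result. Antiviral genes with the pair had a median difference of 0.46 and those without it 0.38, so within the list it did not divide high from low. Across all expressed genes the medians were -0.0060 with and -0.028 without. The stricter form with C as the first of the spacer bases, a subset of the former, occurred in 0.792% of all genes in the table, in 10 of the 32 antiviral genes and in 6 of the 45 higher genes. Ifit3, lower in pLKO.1, held both, while Irf7, Oasl2 and Xaf1 held neither within these windows.

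Of the genes lower in pLKO.1, 2 were past 2-fold. Cxcl5, a chemokine that attracts neutrophils, stood at 8.26 in DMSO, 7.90 in Senexin B, 7.18 in pLKO.1 and 7.25 in shCDK8, a difference of -1.08 between the controls. The cultures with solvent or inhibitor were thus both higher than the pLKO.1 and shCDK8 lines. The unnamed gene 9030624G23Rik had the same difference, but stood at 6.06 in DMSO and 4.98 in pLKO.1, and at -0.08 with its pLKO.1 value raised to the limit. Itgb2, the shared beta chain of leukocyte integrins, was at 8.03, 8.27, 7.05 and 7.52 on the arrays for DMSO, Senexin B, pLKO.1 and shCDK8, at -0.98 just under 2-fold. Klk10, a kallikrein-related peptidase, was at 8.10, 7.55, 7.26 and 7.92 in that order, and lowest in pLKO.1.

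The chemokine genes were split. Of 20 expressed chemokines 11 lay below 0, near the 55.6% of all expressed genes, with a median of -0.092, and Cxcl5 was the only one past 1.5-fold. Ccl2, which attracts monocytes, was at -0.44 (10.96 in DMSO, 11.88 in Senexin B, 10.52 in pLKO.1 and 9.98 in shCDK8). Cxcl1 and Cxcl2, which share the receptor of Cxcl5, were at -0.41 and -0.35. The pLKO.1 value of Cxcl2 was under the limit, and with it raised to the limit the difference was -0.31. Ccl9 was at -0.37. NF-kappaB targets, which include such inducible inflammatory genes, lay below 0 in 14 of 24 expressed cases, none past 1.5-fold, and the median was -0.056. Their extremes were Nfkbie at -0.34 and Csf3, the granulocyte growth factor, at -0.31.

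Among the 20 lowest named genes the remaining ones with values above the limit on both controls were enzymes, a receptor and a keratin. The glycosyltransferase gene Gxylt2 was at 8.02 in DMSO, 8.79 in Senexin B, 7.27 in pLKO.1 and 8.53 in shCDK8, again lowest in pLKO.1. Mpst, which makes hydrogen sulfide, was at -0.73, Prcp, a lysosomal carboxypeptidase, at -0.71 and Ass1, the argininosuccinate synthase of arginine synthesis, at -0.66. The neuropeptide receptor gene Qrfpr was at -0.72 and Krt20, described above, at -0.69. Ube2cbp was at -0.83 and high in DMSO alone, with 7.56 in DMSO, 6.60 in Senexin B, 6.73 in pLKO.1 and 6.58 in shCDK8. For Mpst, Ass1 and Qrfpr the pLKO.1 and shCDK8 values were both below the other pair, with Ass1 at 7.99 in DMSO, 7.73 in Senexin B, 7.33 in pLKO.1 and 7.09 in shCDK8. Olfr584, Ly6g6d, Plbd1, Gad1, Krt33a, Rtl6, Sult2a3, Zglp1, Cdh5 and Gstm7 were under the limit on the pLKO.1 array, and with values raised to it their differences ran from 0 for Plbd1 to -0.81 for Olfr584.

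The 20 highest named genes also held a few outside the interferon lists that were not past 2-fold. Trp53rkb stood at 6.15 in DMSO, 6.45 in Senexin B, 7.08 in pLKO.1 and 7.12 in shCDK8, with the pLKO.1 and shCDK8 lines above the others. The class I-like gene H2-T24 was 0.87 higher, the cytokine receptor chain gene Csf2rb 0.83 and the myosin gene Myh2 0.81. These 3 were under the limit in DMSO, and with values raised to it they were 0.82, 0.61 and 0.16 higher.

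Stress and redox genes lay slightly lower in pLKO.1. Of 18 expressed NRF2 targets, genes of glutathione synthesis and detoxification, 14 lay below 0, against 55.6% of all expressed genes, with a median of -0.15. The glutathione transferase gene Gsta4 was at -0.66 (9.20 in DMSO, 9.53 in Senexin B, 8.54 in pLKO.1 and 9.70 in shCDK8), the lowest of the 4 arrays being pLKO.1. Hmox1, heme oxygenase, was at 11.25 in DMSO and 10.80 in pLKO.1, with Senexin B at 10.17 and shCDK8 at 10.12. Gclm, a subunit of the enzyme that starts glutathione synthesis, was at -0.41, and the cystine transporter gene Slc7a11 at -0.53, with 0.21 from a weaker second probe set. Heat shock genes were below 0 in 10 of 11 cases, with a median of -0.12, Hspa1b at -0.45 and its cochaperone gene Dnajb1 at -0.42. Genes of the integrated stress and unfolded protein responses were below 0 in 25 of 29 cases, with a median of -0.12. The endoplasmic reticulum genes Sdf2l1 and Creld2 were at -0.55 and -0.37 and the one-carbon enzyme gene Mthfd2 at -0.41, while the chaperone gene Dnajb9 was 0.37 higher.

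Below 0 were 29 of 31 expressed G2/M genes, against 55.6% of all expressed genes, none past 1.5-fold, and the median was -0.12. The kinase gene Aurka was at -0.36 (10.88 in DMSO, 10.86 in Senexin B, 10.52 in pLKO.1 and 10.62 in shCDK8), Nusap1, a spindle protein gene, at -0.33 and the cyclin gene Ccna2 at -0.29. Genes of G1/S and DNA replication did not share this, with 19 of 34 above 0 and a median of 0.0051, E2f1 at 0.18 and Ccne1 at 0.15. Reference genes lay below 0 in 9 of 11 cases, with a median of -0.082, Actb at -0.08 and Gapdh at -0.06. The respiratory chain genes had a median of -0.072 and the ribosomal protein genes of -0.039. Small negative medians were thus seen in several lists of strongly expressed genes, though not in the G1/S list. The highest of the 5 groups by level had a median of -0.032, smaller in size than the -0.12 of the G2/M genes. The cause of these shifts was not tested.

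TGF-beta pathway genes and targets lay above 0 in 18 of 24 cases, against 44.3% of all expressed genes, with a median of 0.14. Ltbp2, a latent TGF-beta binding protein gene, was 0.62 higher (8.29 in DMSO, 9.11 in Senexin B, 8.91 in pLKO.1 and 9.11 in shCDK8), with DMSO the lowest. Ccn1, a matricellular protein gene, was 0.33 and Smad7, the feedback inhibitor of the pathway, 0.29 higher, and the ligand gene Tgfb2 was at -0.33. Of 31 expressed matrix genes 19 were above 0 and 12 below it, and the median was 0.043. Fn1 and the proteoglycan gene Dcn were each 0.58 higher, just under 1.5-fold, and Col18a1, whose product carries endostatin, 0.54. Dcn stood at 9.01 in DMSO, 11.30 in Senexin B, 9.59 in pLKO.1 and 8.77 in shCDK8. Among integrins and laminins 13 of 19 lay above 0, with a median of 0.11 and the laminin chain gene Lama3 0.60 higher.

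The metalloproteinases, which the series title names, were close to level as a list, with single genes apart. Mmp3, a stromelysin, stood at 10.53 in DMSO and 11.23 in pLKO.1, with Senexin B at 9.79 and shCDK8 at 8.64. It was the one member of 16 past 1.5-fold, against 0.603% higher among all expressed genes. Both controls were nevertheless above both other cultures. Mmp13, a collagenase, was 0.47 higher in pLKO.1, Mmp14 and Mmp19 were each 0.49 higher and Mmp2 0.37, from a DMSO value of 5.97. Mmp10 and Mmp9 were at -0.22 and -0.21. The list had 9 members above 0, against 44.3% of all expressed genes, and 7 below, with a median of 0.026. Mediator kinase genes were close to level, with Cdk8 at 10.69 and 10.79, Cdk19 at 8.20 and 8.17 and Med13, at 0.29, the farthest apart.

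In other pathways single genes stood out from lists that were close to level. Of 26 hypoxia and glycolysis genes the lactate transporter gene Slc16a3 was 0.76 higher (6.93 in DMSO, 7.43 in Senexin B, 7.69 in pLKO.1 and 6.29 in shCDK8), with a list median of -0.023. The Notch ligand gene Jag1 was at -0.57 and highest in DMSO, with 6.70 there, 5.84 in Senexin B, 6.13 in pLKO.1 and 5.99 in shCDK8. Jag2 and Dll1 were at 0.44 and 0.40, in a list with a median of 0.052. Jag2 was under the limit in DMSO and at 0.28 with that value raised to it, and a second probe set of Dll1 gave -0.09. The death receptor gene Fas was at -0.49 among p53 targets with a median of -0.024. Cholesterol synthesis genes lay above 0 in 13 of 18 cases, against 44.3% of all expressed genes. Their median was 0.097, and Hmgcs1, which commits acetyl groups to the pathway, was 0.33 higher. Of 26 lysosomal genes Gpnmb was the only one past 1.5-fold, against 0.603% higher among all expressed genes. The lysosomal median was 0.031, with the master regulator gene Tfeb 0.36 and Mitf, a related factor, 0.22 higher. Among genes studied in cancer Pdcd1lg2, an inhibitory immune ligand gene, was 0.49 higher, or 0.21 with its DMSO value, which was under the limit, raised to it. Cd47, the signal that inhibits phagocytosis, was 0.31 higher, and Myc (10.27 and 10.34), Ctnnb1 (11.35 on both) and Hmga2 (10.46 and 10.61) were close to level.

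**Figure D5:**
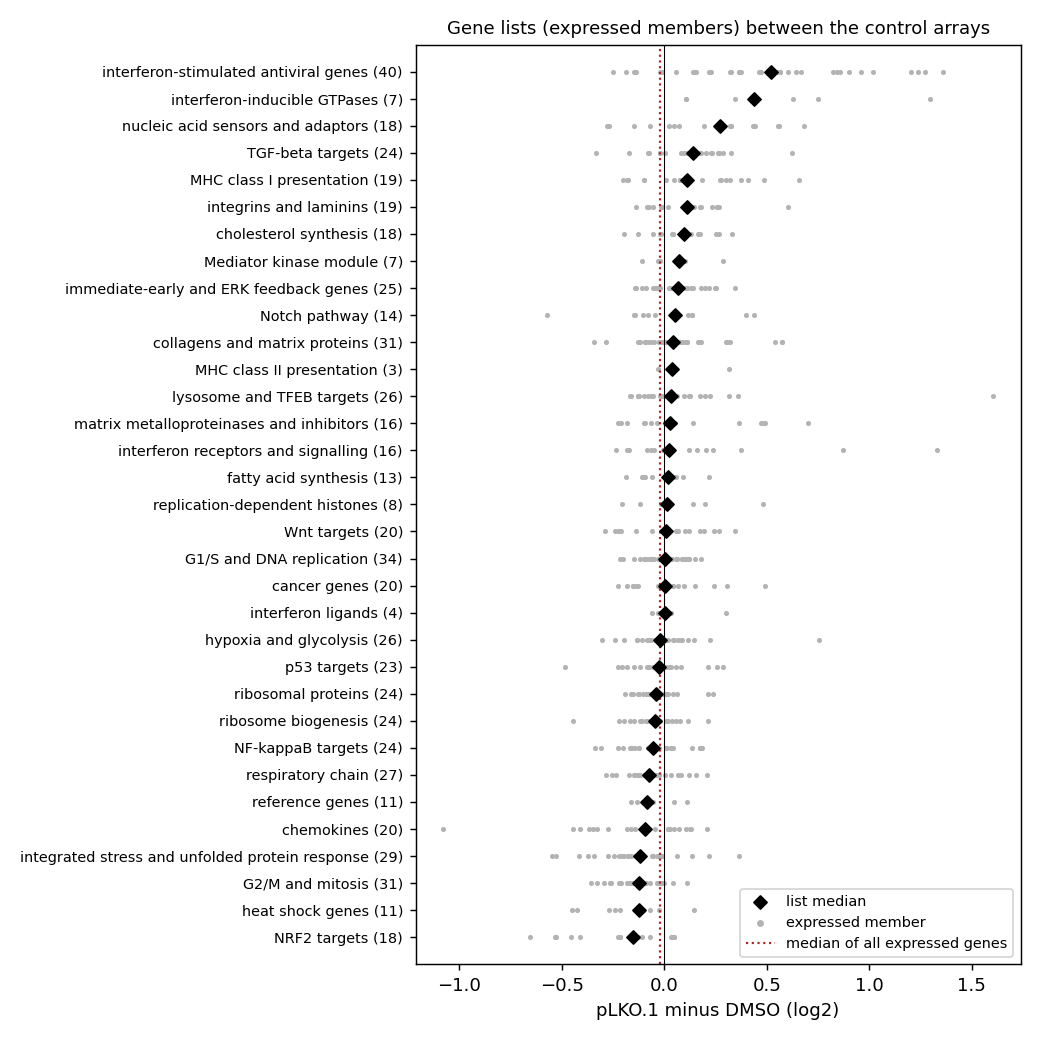
Difference of pLKO.1 minus DMSO (log2) for each expressed member (grey) and the median (black diamond) of each pathway list with 3 or more expressed members (marker lists are not drawn), with the number of expressed members in brackets and a dotted red line at the median of all expressed genes, -0.023. The antiviral list (0.52), the GTPases (0.44) and the nucleic acid sensors (0.27) lie farthest to the right and the NRF2 targets (-0.15) farthest to the left among those drawn.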

How the data were processed

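Total RNA of 4 CT26 cultures was measured on 1 array each. The authors deposited 1 log2 value per probe set and array, made with RMA and Affymetrix Expression Console per the submitters' processing notes. Nothing in the sources names versions, settings, the build of the array design or whether arrays were normalized jointly. RMA equalizes arrays and compresses differences near background.

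From these values, symbols came from the platform annotation: 23521 probe sets had 1 symbol, 1814 several and 16010 none, and only the first were used. Of these 23328 matched RefSeq for GRCm38.p6 and 0 symbols changed. For the 1082 genes with several probe sets, the brightest on average over the arrays was taken. Differences were taken as pLKO.1 minus DMSO with Python 3.11.15, numpy 2.4.6 and pandas 2.3.3. The number of arrays limits the precision. The counting was tested on simulated data with planted 3-fold changes and the same spread for all genes. That checks the code and not the counts near 2-fold.

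The members, the gene lists and the rule for naming genes were chosen with earlier results of these data known. The rule allowed all genes past 2-fold, the 20 highest and 20 lowest (without predicted loci, pseudogenes, small RNAs and receptor segments), up to 4 of each list by size of difference, all members of the interferon and MHC class I lists, the first 4 markers of each cell type, and neighbours of named genes where both were past 1.5-fold. Other list members were named after their values were seen. Alternatives were other filters, thresholds, scalings, probe set rules and a floor at the limit.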

Additional observations from a re-analysis of the deposited data

How the results depend on the processing

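No paired analysis was possible because each group has 1 array, and no replicate could be left out. A value was taken as moved where it shifted by at least 0.1 (log2), and a count where it changed by more than 1.5 times. The 12 genes at least 2-fold higher became 24 with no filter on low values, 86 at 1.5-fold and 1 at 3-fold. The 2 lower genes became 11 with no filter, 62 at 1.5-fold, 0 at 3-fold, and 1 with the filter at the 60th percentile, with the mean of the control arrays or both of them at the limit, or with values raised to the limit. The median and SD over all genes moved by less than 0.1 under every alternative run. This tolerance is larger in size than the overall median of -0.023 and than many list medians. A small median could thus change sign and still count as unmoved. By the mean in place of the median, fatty acid synthesis went from 0.02 to -0.0033 and hypoxia and glycolysis from -0.023 to 0.0047. Of the list medians recomputed, 392 moved by less than 0.1 and 10 by more. The latter were the GTPases at 0.63 with the 60th percentile filter, interferon receptors and signalling at 0.16 by the mean in place of the median, MHC class II presentation at 0.25 and macrophage markers at -0.10 without a filter, epithelial markers at -0.31 (60th percentile), -0.14 (mean in place of the median) and 0.095 (mean of probe sets), and, by the mean in place of the median, colon epithelium at -0.29, endothelial at -0.11 and mesenchymal at 0.053. Markers at the limit on both controls fell at the 60th percentile to 1 each for the colon, endothelial, epithelial, smooth muscle and neuronal lists and 0 for hepatocyte and adipocyte, and at the 50th percentile to 2 for colon, 1 for endothelial and 0 for adipocyte. By the mean of probe sets Col1a2 turned to -0.020, Vim to 0.041 and Rplp0 to 0.021, and 10 other named genes moved. With values raised to the limit 24 moved, as is built into that setting. No named gene moved under the lowess or quantile scaling, but both had little to remove. Array medians already lay between 5.99 and 6.04, and median differences by level group between -0.033 and -0.0038. This outcome therefore says little about how firm the values are. The cause of the turns was not tested. Differences under about 0.2 lie within the spread over genes, and signal over background was not used.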

Other observations

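Probe sets without a gene symbol were farther apart between the controls than named genes. Of 7211 such probe sets that reached the limit on at least 1 array, 207 were at least 2-fold higher in pLKO.1 and 56 at least 2-fold lower, together 3.65%, with an SD of 0.416 and values from -2.88 to 3.55. Among 1072 probe sets with several symbols that reached it, 6 were higher and 2 lower, and none is named here. What the unnamed probe sets measure was not analysed here.

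Neighbouring genes were examined in runs of 100 consecutive expressed genes in the RefSeq order. The run with the highest median, from Cdc23 to Prdm6, lay at 0.076, with 71 of 100 genes above 0, beside -0.023 and 44.3% over all expressed genes. Set against each gene's mean over the 4 arrays, its medians were -0.011 in DMSO, -0.071 in Senexin B, 0.063 in pLKO.1 and -0.0059 in shCDK8, so pLKO.1 was the high array. The run with the lowest median, from Ank2 to Acadm, lay at -0.094, with 33 of 100 above 0. Its medians were 0.027 in DMSO, -0.072 in Senexin B, -0.047 in pLKO.1 and 0.062 in shCDK8. These runs were chosen as the extremes of overlapping runs and their values are a description.

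Neighbours past 1.5-fold on both sides formed 3 pairs, Igtp with Irgm2, Oas2 with Oas3 and Oas1b with Oas1g, each from the interferon lists and each higher in pLKO.1.

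A weaker probe set of Sp100 stood at 4.57 in DMSO, 5.24 in Senexin B, 6.14 in pLKO.1 and 4.59 in shCDK8, a difference of 1.57 beside 0.64 for the one used. The DMSO and shCDK8 values were low by both.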
